A study of Saccharomyces cerevisiae with 15 samples.

Results

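The promoters of nuclear genes for mitochondrial ribosomal proteins (RPs) were followed on chromatin immunoprecipitation arrays (ChIP-chip) of the yeast factors Fhl1 and Ifh1. The array carries intergenic DNA, and a probe was taken as a member when the 5′ end of one of 60 such genes (34 large subunit, 26 small subunit) faces it. Probes were found for 52 of these genes (30 large subunit, 22 small subunit), and they are 52 different probes among 5811 intergenic probes that are named by a reading frame and 6803 probes in all. Of the 52 probes, 22 face 1 gene, 29 lie between 2 divergent genes, and 1 faces MRPL8, COA3 and LAS21. No member probe also faces a cytosolic RP gene, so none had to be set apart. Where several genes face a probe it carries all their names, as in MCK1/MRPS18, and its signal cannot be assigned to one of them. The genes MRP4, MRPL19, MRPL3, MRPL49, MRPL51, MRPS35, RSM26 and RSM7 had no probe under this rule and are not described.

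The 15 arrays fall into 4 groups: 3 of Ifh1 from cells given rapamycin, 4 of Ifh1 from untreated cells, 5 of Fhl1 from cells given rapamycin and 3 of Fhl1 from untreated cells. Ifh1 carried a myc tag in the strain W303+IFH1-13myc-TRP1MX6 and Fhl1 in W303+FHL1-13myc-HIS3MX6. All cultures grew to log phase in YPD, a rich medium, at 30 °C, and the treated ones received rapamycin, which inhibits the TOR kinase, at 200 ng/mL. Each array sets DNA precipitated with an anti-myc antibody from the tagged strain against DNA from the untagged W303 strain, so a log2 ratio away from the array median marks DNA that differed between tagged and untagged cells. The labels call the replicates biological, and do not say whether the W303 cells paired with the rapamycin arrays were treated too. A single tagged strain per protein was used, so strain and tag cannot be told apart.

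Mitochondrial ribosomes translate the few messages of the mitochondrial genome, most of which encode membrane subunits of the respiratory chain. Apart from Var1, their proteins are encoded in the nucleus, made by cytosolic ribosomes and imported, and many are homologues of bacterial ribosomal proteins. At the genes for cytosolic RPs, Fhl1 is a promoter-bound factor and Ifh1 its coactivator, whose presence there depends on TOR activity. The comparison of the 2 kinds of RP promoter therefore asks whether the same factors were enriched at the genes of the mitochondrial ribosome.

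The numerator of the deposited ratio is not given, and arrays of one group had cytosolic RP promoters on opposite sides of the array median. Each array was therefore centred on its median and its sign was set so that the 128 cytosolic RP probes had a positive median. Their positive side is thus fixed by this choice, while the size of their median on an array, and both side and size of the mitochondrial RP probes, are not. A cytosolic RP level of a group averages medians that were each made positive. Counts of cytosolic RP probes called or above the median come from the probes that set the signs, and are given for scale. With signs as deposited, 14 of 22 pairs of arrays from one group correlated below 0 over all probes (lowest r = -0.179), and after turning, the 19 pairs outside Ifh1 rapamycin, whose signs are unsettled, ran from -0.117 to 0.159. On the Ifh1 rapamycin arrays the cytosolic RP shift was too small to settle the sign, and all signed values of these 3 arrays carry that limit. Array medians before centring lay between -1.31 and 1.74, and the number of arrays limits the precision of every value below.

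The mitochondrial RP promoters lay close to the array median in 3 groups and a little below it for Ifh1 untreated, while cytosolic RP promoters stood well above it in every group except Ifh1 rapamycin. The median log2 ratio of the 52 probes was 0.02, -0.02 and 0.02 on the Ifh1 rapamycin arrays, replicates 1 to 3. It was -0.06, -0.29, -0.19 and -0.10 on the Ifh1 untreated arrays, replicates 1 to 4. It was -0.12, -0.03, -0.04, -0.09 and 0.09 on the Fhl1 rapamycin arrays and -0.00, 0.15 and 0.00 on the Fhl1 untreated arrays. Only the Ifh1 untreated arrays all lay more than 0.05 below the median, and the values of the other groups fell on both sides of it.

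**Figure D1:**
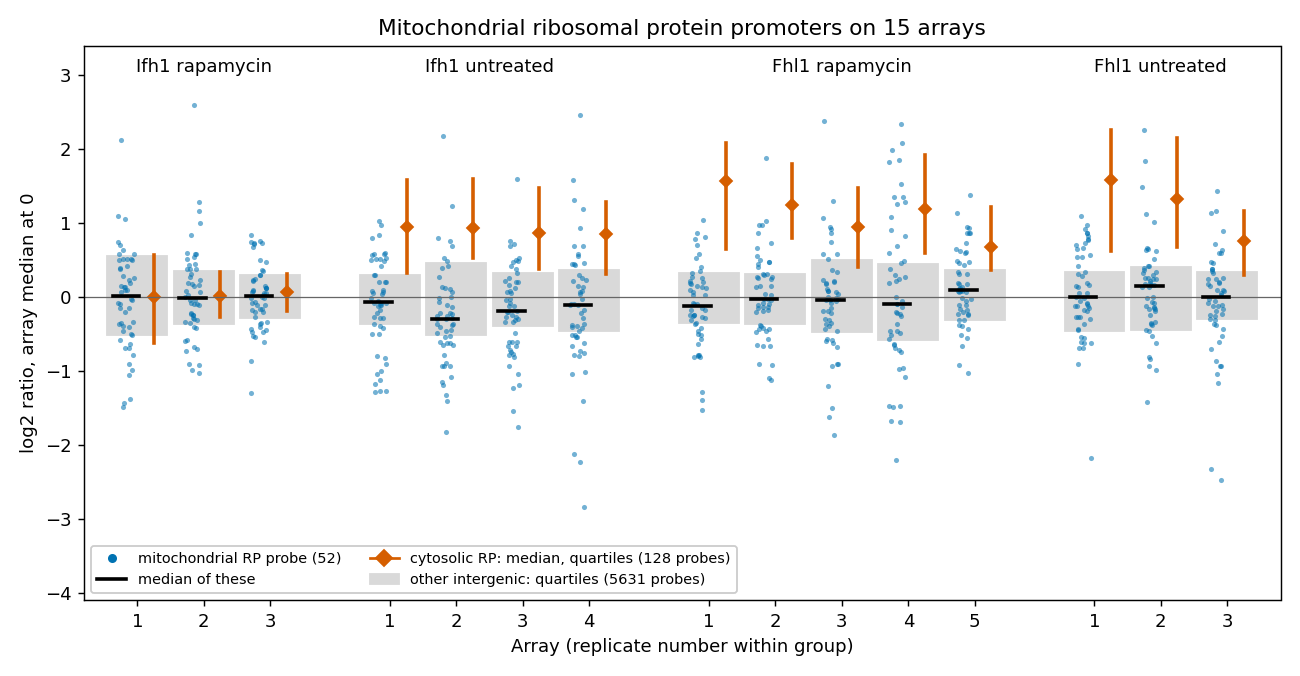
Log2 ratio, with the array median at 0, of the 52 mitochondrial RP probes (points; black bar, their median) on each of 15 arrays, beside the median and quartiles of 128 cytosolic RP probes (diamond and line) and the quartiles of 5631 other intergenic probes (grey). The black bars stay between -0.29 and 0.15 on all arrays, whereas the diamonds lie between 0.68 and 1.58 on the 12 arrays outside Ifh1 rapamycin.

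As group means of these array medians, the mitochondrial RP level was 0.01 ± 0.02 for Ifh1 rapamycin (SD, n = 3), -0.16 ± 0.10 for Ifh1 untreated (n = 4), -0.04 ± 0.08 for Fhl1 rapamycin (n = 5) and 0.05 ± 0.09 for Fhl1 untreated (n = 3). The cytosolic RP level was 0.03 ± 0.03 for Ifh1 rapamycin, 0.90 ± 0.05 for Ifh1 untreated, 1.13 ± 0.33 for Fhl1 rapamycin and 1.22 ± 0.42 for Fhl1 untreated. The other intergenic probes stayed at -0.00 ± 0.01 for Ifh1 rapamycin, -0.03 ± 0.01 for Ifh1 untreated, -0.02 ± 0.02 for Fhl1 rapamycin and -0.02 ± 0.02 for Fhl1 untreated. Taken array by array, mitochondrial minus cytosolic RP promoters gave -1.06 ± 0.12 for Ifh1 untreated, -1.17 ± 0.41 for Fhl1 rapamycin and -1.17 ± 0.41 for Fhl1 untreated, against -0.02 ± 0.03 for Ifh1 rapamycin. Mitochondrial RP minus other intergenic probes gave 0.01 ± 0.03 for Ifh1 rapamycin, -0.13 ± 0.10 for Ifh1 untreated, -0.02 ± 0.07 for Fhl1 rapamycin and 0.07 ± 0.09 for Fhl1 untreated. In each of the 3 groups with shifted cytosolic RP promoters, the size of the difference from them thus exceeded its spread between arrays. Its side largely follows from the sign rule, which makes the cytosolic RP median of every array positive. The difference from other intergenic DNA was within about 1 SD of 0 except for Ifh1 untreated.

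The arrays were also divided into 3 clusters, a number set in advance, by the size of their correlation over probes outside the gene lists, whatever its side. All arrays of cluster 1 kept their deposited sign. Those of clusters 2 and 3 were turned, except Ifh1 untreated replicate 4. The labels name no batch, and what the clusters reflect was not tested. In cluster 1 the mitochondrial RP level was 0.02 for Ifh1 rapamycin, -0.29 for Ifh1 untreated, -0.06 for Fhl1 rapamycin and -0.00 for Fhl1 untreated. In cluster 2 it was 0.00 for Ifh1 rapamycin, -0.14 for Ifh1 untreated, 0.03 for Fhl1 rapamycin and 0.08 for Fhl1 untreated, and cluster 3 held 1 Ifh1 untreated array (-0.06) and 1 Fhl1 rapamycin array (-0.12). Ifh1 untreated thus lay below the median in each cluster, though not below Fhl1 rapamycin in cluster 3.

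Each probe was then tested in limma, with 4 group means fitted to all 15 arrays and adjusted p-values (Benjamini-Hochberg, two-sided) taken over all 6803 probes; a probe with an adjusted p under 0.05 is called. No mitochondrial RP probe was called in any group. For Ifh1 rapamycin 0 of 52 were called, against 0.0% of all probes. For Ifh1 untreated it was 0 of 52, against 0.353% of all probes and 24 of 128 cytosolic RP probes. For Fhl1 rapamycin it was 0 of 52, against 0.97% of all probes and 61 cytosolic RP probes. For Fhl1 untreated it was 0 of 52, against 0.661% of all probes and 42 cytosolic RP probes. With so few calls outside cytosolic RP genes, a count of 0 among 52 is close to the background share, and the estimates say more than the calls.

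At an unadjusted p under 0.05, limma found 1 mitochondrial RP probe higher and 0 lower for Ifh1 rapamycin, against 2.66% and 2.6% of all probes. It found 0 higher and 5 lower for Ifh1 untreated, against 4.25% and 3.12%. For Fhl1 rapamycin 0 were higher and 2 lower, against 4.17% and 2.85%, and for Fhl1 untreated 1 was higher and 1 lower, against 2.91% and 2.29%. The lowest adjusted p of a member was 0.842 for Ifh1 rapamycin, 0.444 for Ifh1 untreated, 0.613 for Fhl1 rapamycin and 0.518 for Fhl1 untreated.

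The 3 groups with a cytosolic RP shift were also averaged, which puts 12 arrays behind each probe and gives the narrowest intervals. The median estimate of the 52 mitochondrial RP probes was -0.06, against 1.11 for the cytosolic RP probes and -0.02 for other intergenic probes. The members ran from -0.45 at RSM28 to 0.47 at MCK1/MRPS18, and 103 of 128 cytosolic RP probes lay above the highest of them. The 95% confidence interval of all 52 members ended below the cytosolic RP median, and the highest upper end was 0.96, at MRPL24. An average shift as large as that of the typical cytosolic RP promoter therefore lay outside the interval of every mitochondrial RP probe. The spread among the members (SD 0.205) was close to that among other intergenic probes (SD 0.203). No member was called, against 1.47% of all probes and 87 of 128 cytosolic RP probes. At an unadjusted p under 0.05, 1 member was higher and 1 lower, against 4.17% and 3.41% of all probes.

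In single groups the intervals were wider. For Ifh1 untreated, the upper end of the 95% interval lay below the cytosolic RP median for 44 of 52 members, as it did for 48 members for Fhl1 rapamycin and 44 for Fhl1 untreated. For the remaining members of those groups an enrichment like that of a typical cytosolic RP promoter lay inside the interval. For Ifh1 rapamycin, where the cytosolic RP estimates were themselves centred near 0, the count was 0.

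The sign on single arrays was mixed for most members, with an excess below the median for Ifh1 untreated. Over the 12 arrays, 0 mitochondrial RP probes were above the array median on every one, against 1.22% of all probes and 78 of 128 cytosolic RP probes, and 0 were below it on every one, against 0.0882% of all probes. Probes above the median on 9 or more of the 12 arrays were RSM19/DBP6 and RSM25/YIL092W, 2 of 52, against 8.67% of all probes and 110 cytosolic RP probes. RSM25/YIL092W lies outside the naming rule and is given because it completes this count. On all arrays of a group, 7 members lay above and 7 below the median for Ifh1 rapamycin, against 12.1% and 14.1% of all probes, and 5 above and 6 below for Fhl1 untreated, against 12.1% and 12.1%. For Ifh1 untreated 1 lay above and 11 below, against 7.72% and 6.7%, and these 11 are named further on. For Fhl1 rapamycin 0 lay above and 2 below, against 4.67% and 3.41%.

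**Figure D2:**
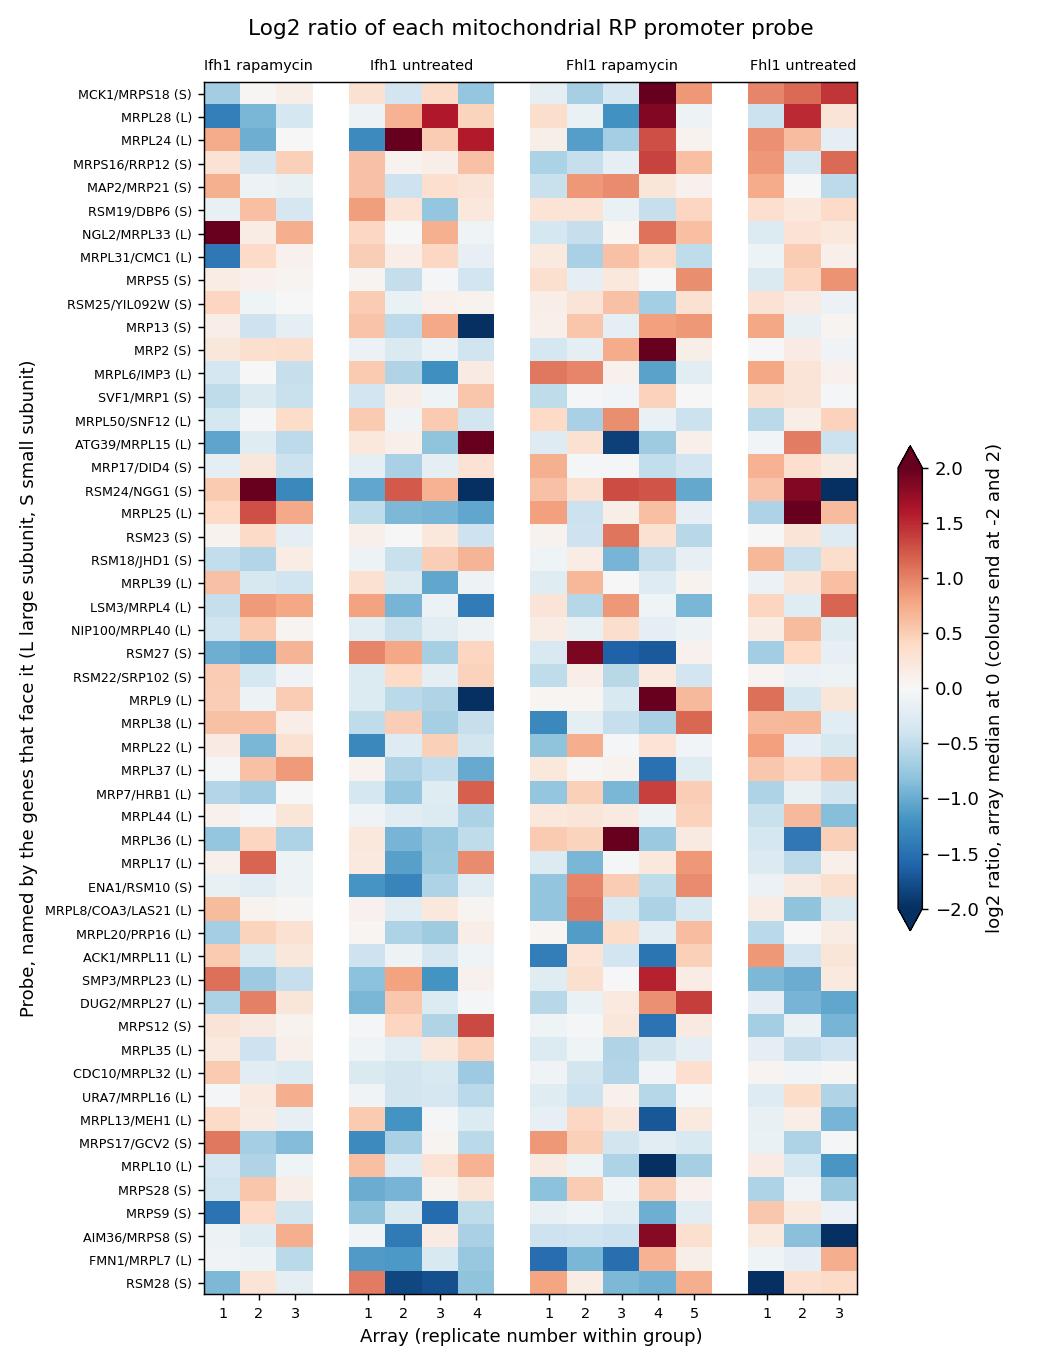
Log2 ratio, with the array median at 0, of each of the 52 mitochondrial RP probes (rows, ordered by the mean over the 3 groups with a cytosolic RP shift; L large subunit, S small subunit) on 15 arrays (columns, by group). Rows change colour between arrays of one group, including the top row, MCK1/MRPS18, which is above the median on 7 of 12 arrays outside Ifh1 rapamycin.

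The 2 subunits of the mitochondrial ribosome did not separate beyond the spread between arrays. Large-subunit promoters had a level of 0.03 ± 0.04 for Ifh1 rapamycin, -0.18 ± 0.11 for Ifh1 untreated, -0.06 ± 0.09 for Fhl1 rapamycin and 0.02 ± 0.11 for Fhl1 untreated. Small-subunit promoters had -0.04 ± 0.04 for Ifh1 rapamycin, -0.11 ± 0.16 for Ifh1 untreated, 0.02 ± 0.13 for Fhl1 rapamycin and 0.12 ± 0.16 for Fhl1 untreated. In the mean of 3 groups, 9 of 30 large-subunit (30%) and 13 of 22 small-subunit probes (59.1%) had an estimate above 0, against 43.8% of other intergenic probes. The median estimate was -0.10 over large-subunit probes and 0.03 over small-subunit probes. Probes that face 1 gene, where a signal has a single candidate, had a median of -0.07, and those that face more had -0.02.

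Among the large-subunit promoters, the highest means over the 3 groups were at MRPL28, whose protein has no bacterial counterpart, and MRPL24, a homologue of a bacterial large-subunit protein. MRPL28 gave -1.37, -0.91 and -0.35 on the Ifh1 rapamycin arrays and -0.10, 0.69, 1.60 and 0.45 on the Ifh1 untreated arrays. On Fhl1 rapamycin arrays it gave 0.36, -0.13, -1.21, 1.86 and -0.10, and on Fhl1 untreated arrays -0.43, 1.49 and 0.26. Its arrays thus scattered to both sides within every group except Ifh1 rapamycin, and the limma estimate over the 3 groups was 0.42 (SE 0.24, adjusted p = 0.770), with 0.28 without replicate 4 of Fhl1 rapamycin and 0.24 without replicate 2 of Fhl1 untreated.

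MRPL24 gave 0.75, -0.98 and -0.01 on Ifh1 rapamycin arrays, -1.27, 2.19, 0.50 and 1.59 on Ifh1 untreated arrays, 0.12, -1.10, -0.68, 1.29 and 0.07 on Fhl1 rapamycin arrays and 0.92, 0.62 and -0.18 on Fhl1 untreated arrays. One Ifh1 untreated array was the lowest of the 15 for this probe and another the highest. Its estimate over the 3 groups was 0.38, with 0.61 without replicate 1 and 0.22 without replicate 2 of Ifh1 untreated. The probes NGL2/MRPL33 and MRPL31/CMC1 followed in the order of large-subunit promoters, with means over the 3 groups of 0.17 and 0.13. CMC1 encodes an assembly factor of cytochrome oxidase.

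At the low end of the large subunit stood FMN1/MRPL7, between the gene of riboflavin kinase and that of a bacterial-type large-subunit protein. It gave -0.08, -0.10 and -0.53 on Ifh1 rapamycin arrays and -1.13, -1.15, -0.30 and -0.76 on Ifh1 untreated arrays. It gave -1.53, -0.92, -1.50, 0.70 and 0.12 on Fhl1 rapamycin arrays and -0.08, -0.19 and 0.72 on Fhl1 untreated arrays. All Ifh1 untreated arrays were below the median, while Fhl1 arrays lay on both sides. The Ifh1 rapamycin arrays were below it with the signs used, which are unsettled. The estimate over the 3 groups was -0.44 (limma, SE 0.19, unadjusted p = 0.0343, adjusted p = 0.609), with 3 of 12 arrays above the median.

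MRPL10, a homologue of a bacterial large-subunit protein, had the lowest mean for Fhl1 rapamycin, -0.68 ± 0.92 (SD, n = 5; limma adjusted p = 0.613), with array values of 0.18, -0.10, -0.62, -2.21 and -0.67. Replicate 4 alone reached below -1 in that group, and without it the estimate was -0.30. FMN1/MRPL7, described above, followed at -0.63 ± 1.00, and then ACK1/MRPL11 at -0.50 ± 0.91. MRPL36 was the highest there at 0.56 ± 1.14, where replicate 3 gave 2.39 and replicate 4 gave -0.74. The MRPL36 estimate was 0.10 without replicate 3 and 0.89 without replicate 4. For ACK1/MRPL11 the arrays gave -1.38, 0.27, -0.39, -1.47 and 0.48, spread over both sides of the median.

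Among the small-subunit promoters MCK1/MRPS18 was highest. MCK1 encodes a protein kinase of the glycogen synthase kinase family, and MRPS18 a homologue of a bacterial small-subunit protein. The probe gave -0.69, 0.03 and 0.13 on Ifh1 rapamycin arrays and 0.31, -0.38, 0.39 and -0.78 on Ifh1 untreated arrays. It gave -0.18, -0.66, -0.35, 2.09 and 0.87 on Fhl1 rapamycin arrays and 0.98, 1.13 and 1.44 on Fhl1 untreated arrays. The Fhl1 untreated arrays were all above the Ifh1 arrays and above 4 of the 5 Fhl1 rapamycin arrays. For Fhl1 untreated its limma estimate was 1.18 (SE 0.41, unadjusted p = 0.0102, adjusted p = 0.518), the largest of the 52 members in that group and close to the cytosolic RP level of 1.22. Over the 3 groups it was 0.47, with a 95% interval of 0.03 to 0.91 and an adjusted p of 0.620 in limma, and without replicate 4 of Fhl1 rapamycin it was 0.33.

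MRPS16/RRP12, shared with a ribosome biogenesis gene, had a mean over the 3 groups of 0.34 (SE 0.18), MAP2/MRP21, shared with a methionine aminopeptidase gene, 0.20, and RSM19/DBP6, shared with an RNA helicase gene of cytosolic ribosome assembly, 0.18. RSM19/DBP6 was above the median on 9 of 12 arrays and gave 0.34, 0.22 and 0.39 on the Fhl1 untreated arrays, the narrowest of these 3 probes there. None of the 3 passed the test.

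RSM28 had the lowest mean over the 3 groups, -0.45 (SE 0.28, adjusted p = 0.815 in limma), and one of the widest scatters. It gave -0.90, 0.27 and -0.20 on Ifh1 rapamycin arrays, 1.03, -1.82, -1.76 and -0.80 on Ifh1 untreated arrays, 0.79, 0.16, -0.90, -0.96 and 0.73 on Fhl1 rapamycin arrays and -2.17, 0.33 and 0.38 on Fhl1 untreated arrays. Every group held arrays on both sides, and 6 of 12 were above the median. Without replicate 1 of Fhl1 untreated the mean over the 3 groups was -0.17. Among small-subunit promoters AIM36/MRPS8 followed at -0.43, with -0.99 ± 1.26 for Fhl1 untreated (limma adjusted p = 0.947). There replicate 3 gave -2.32 and replicate 1 gave 0.19. Without replicate 3 its mean over the 3 groups was -0.21. MRPS28, a bacterial-type protein, was at -0.28.

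RSM24/NGG1 scattered most. NGG1 encodes a subunit of the SAGA histone acetyltransferase complex. The probe gave 0.52, 2.60 and -1.29 on Ifh1 rapamycin arrays and 0.58, 1.85 and -2.48 on Fhl1 untreated arrays, an SD of 1.94 and of 2.22. Its group means of 0.61 ± 1.94 for Ifh1 rapamycin and 0.49 ± 0.95 for Fhl1 rapamycin (SD) were both among the 3 highest there. Neither mean exceeds the SD of its own group.

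For Ifh1 untreated, mitochondrial RP probes leaned below the array median. The median estimate of the members was -0.23, against -0.04 for other intergenic probes, and 34 of 52 lay below 0. Above 0 were 34.6% of members, against 44.6% of other intergenic probes. The lean was not particular to the members. Mitochondrial translation factors had a median of -0.13, with 35% above 0. Other mitochondrial RP probes had -0.02, with 50% above 0, and respiratory chain probes 0.07, with 54.3%. Below the median on all 4 arrays were 11 of 52 members, 21.2%, against 6.7% of all probes, and 1 was above on all 4, against 7.72%. Of the 11, 8 were large-subunit promoters: URA7/MRPL16, CDC10/MRPL32, ACK1/MRPL11, FMN1/MRPL7, MRPL25, MRPL9, MRPL44 and NIP100/MRPL40. The 3 small-subunit promoters were MRPS9, ENA1/RSM10 and MRP2. These names complete the count, and URA7/MRPL16, CDC10/MRPL32, MRPL44, NIP100/MRPL40, ENA1/RSM10 and MRP2 were chosen after their values were seen. With the signs as deposited, 4 of 52 were below on all 4 arrays, 7.69%, against 7.13% of all probes, so the excess rests on the signs set by the cytosolic RP promoters. Without replicate 1 of Ifh1 untreated, 18 of 52 members, 34.6%, were below the median on the other 3 arrays, against 14.0% of all probes.

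The lowest p-values for Ifh1 untreated were at ENA1/RSM10 and MRPS9, where RSM10 and MRPS9 encode homologues of bacterial small-subunit proteins. ENA1/RSM10 gave -1.17, -1.33, -0.61 and -0.21 on Ifh1 untreated arrays (limma estimate -0.83, SE 0.29, unadjusted p = 0.00997, adjusted p = 0.444). MRPS9 gave -0.80, -0.29, -1.54 and -0.51 on them (estimate -0.78, SE 0.28, unadjusted p = 0.0119, adjusted p = 0.463). MRPL9, whose protein belongs to the family near the peptidyl transferase centre, gave -0.28, -0.54, -0.61 and -2.83, and its mean of -1.06 ± 1.19 (SD, n = 4) became -0.47 ± 0.17 (n = 3) without replicate 4. MRPL25, a protein without a bacterial counterpart, gave -0.50, -0.89, -0.93 and -1.03, the tightest of these 4 promoters (estimate -0.84, SE 0.34, adjusted p = 0.579 in limma).

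**Figure D3:**
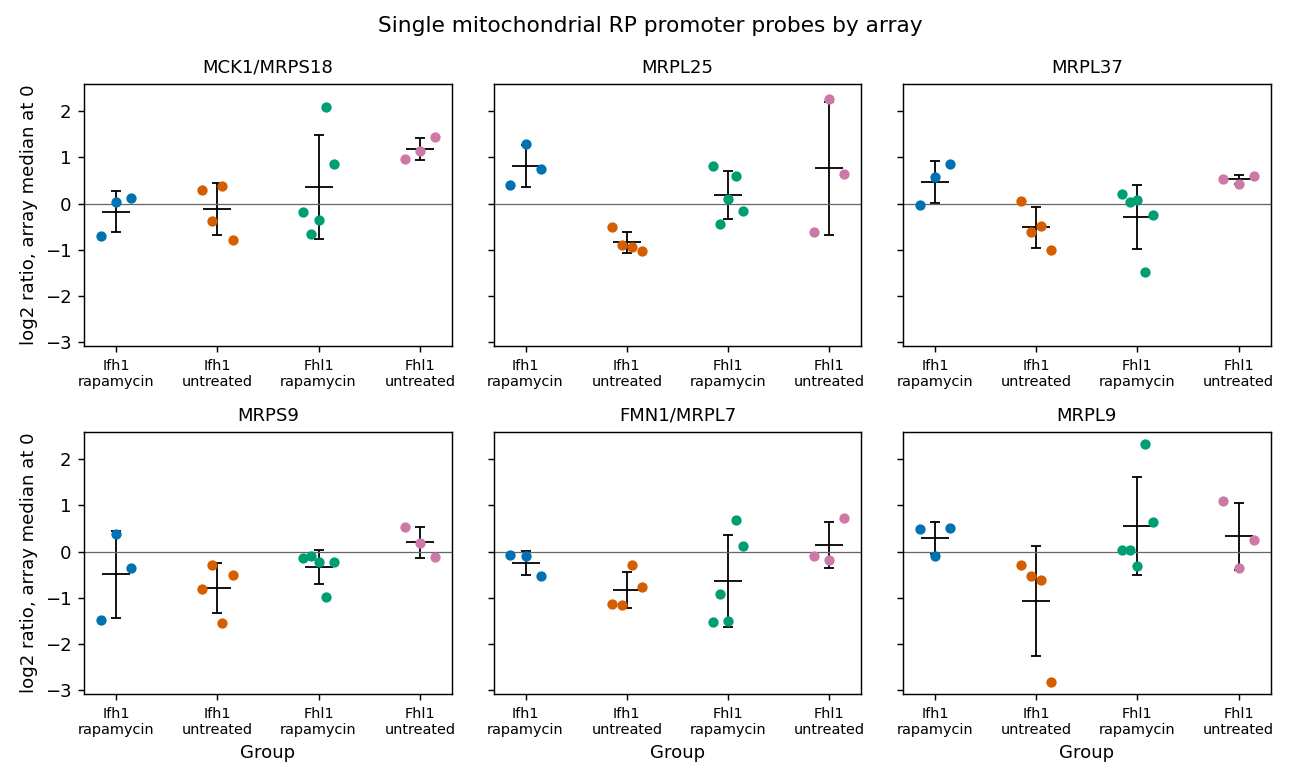
Log2 ratio, with the array median at 0, of 6 mitochondrial RP probes in the 4 groups. Points are arrays, and the black bars give the mean and SD. At MRPL25 the Ifh1 untreated arrays lie between -1.03 and -0.50. They are below all Ifh1 rapamycin arrays with the signs used, which are unsettled for Ifh1 rapamycin. At MCK1/MRPS18 the Fhl1 untreated arrays lie between 0.98 and 1.44.

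Rapamycin was compared with no drug for each protein. No mitochondrial RP probe passed the test for either. For Ifh1, 0 of 52 were called, against 0.0147% of all probes. For Fhl1, 0 of 52 were called, against 0.0% of all probes. The Ifh1 difference, rapamycin minus untreated, had a median of 0.24 over the 52 members, against 0.03 for other intergenic probes and -0.85 for cytosolic RP probes. It was above 0 for 34 of 52 members (65.4%), against 52.9% of other intergenic probes. The Fhl1 difference had a median of -0.08 over the members, against 0.01 for other intergenic probes and -0.10 for cytosolic RP probes. It was above 0 for 25 members (48.1%), against 51.3% of other intergenic and 40.6% of cytosolic RP probes. The comparisons for Ifh1 untreated above and this one share the same 4 untreated arrays. The cytosolic RP difference for Ifh1 compares the sizes of the shift, because the sign rule makes the cytosolic RP median of every array positive. The side of this difference is not fixed by the rule, but the signs of the Ifh1 rapamycin arrays are unsettled.

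**Figure D4:**
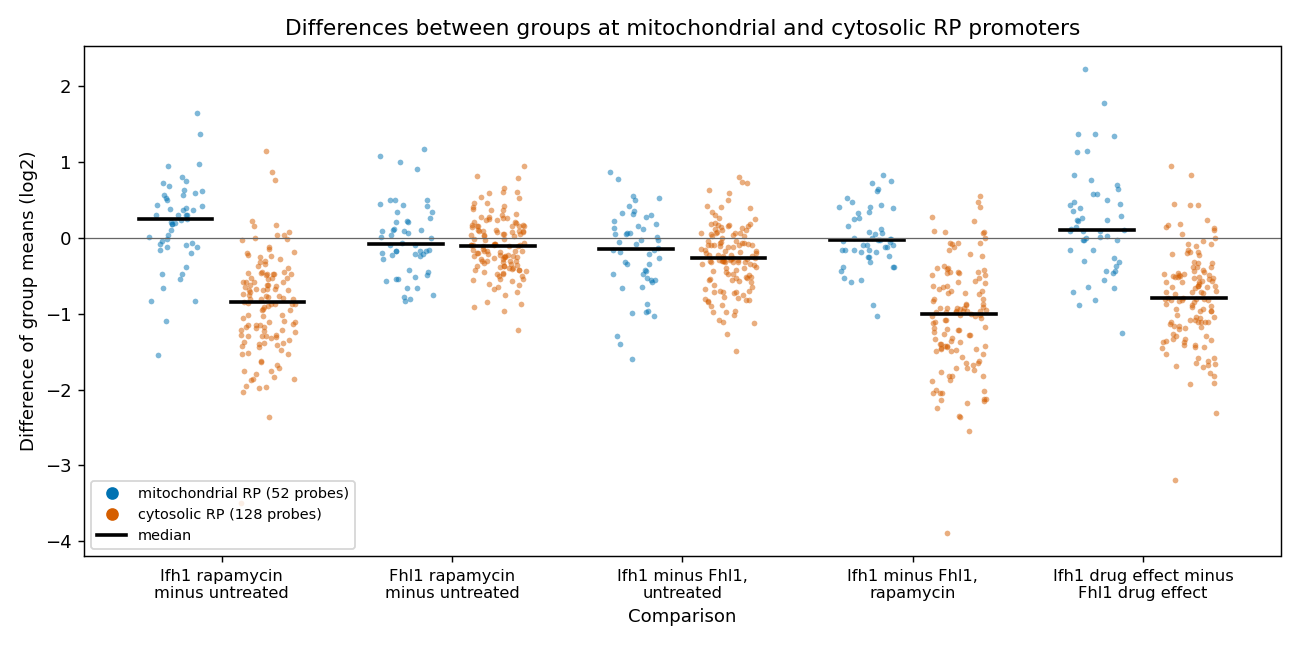
Differences of group means (log2) for 52 mitochondrial and 128 cytosolic RP probes in 5 comparisons; points are probes and black bars their medians. Medians differ most for Ifh1 rapamycin minus untreated, at 0.24 for mitochondrial and -0.85 for cytosolic RP probes, and for Ifh1 minus Fhl1 with rapamycin, at -0.03 and -1.01.

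At an unadjusted p under 0.05 in limma, 3 members were higher and 1 lower with rapamycin for Ifh1, against 2.9% and 3.15% of all probes. These were MRPL25, MRPL37 and MRPL9 on the high side and MRPL28 on the low side, all large-subunit promoters whose probes face 1 gene. MRPL25 gave 0.40, 1.29 and 0.75 with rapamycin, against -0.50, -0.89, -0.93 and -1.03 untreated. The groups did not overlap, and the difference was 1.65 (SE 0.51, unadjusted p = 0.00527, adjusted p = 0.618). Over the 8 ways to set the signs of the rapamycin arrays it ranged between 0.03 and 1.65.

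MRPL37, another protein without a bacterial counterpart, gave -0.04, 0.59 and 0.85 with rapamycin, against 0.06, -0.62, -0.49 and -1.01 untreated. The groups overlapped at 1 array, and the difference was 0.98 (limma, SE 0.41, adjusted p = 0.824), ranging from 0.02 to 1.00 over the sign settings. For MRPL9 the difference was 1.36 (SE 0.64, adjusted p = 0.825 in limma), with 0.77 without replicate 4 of Ifh1 untreated and a range of 0.70 to 1.43 over the sign settings. MRPL28 gave the reverse, -1.54 (SE 0.61, adjusted p = 0.824 in limma), ranging from -1.54 to 0.22 over the sign settings. ATG39/MRPL15, shared with a gene of selective autophagy, was the next lowest at -1.10, where untreated replicate 4 gave 2.46. Without that array the difference was -0.44, and over the sign settings it ranged from -1.10 to 0.11.

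For Fhl1, 1 member was higher and 0 lower with rapamycin at an unadjusted p under 0.05, against 1.96% and 1.62% of all probes. That probe was DUG2/MRPL27, shared with a gene of glutathione degradation. It gave -0.56, -0.14, 0.19, 0.91 and 1.39 with rapamycin, against -0.18, -0.94 and -1.04 untreated. The groups overlapped, and the difference was 1.08 (limma, SE 0.48, unadjusted p = 0.0379, adjusted p = 0.999). AIM36/MRPS8 had the largest difference, 1.17, and MCK1/MRPS18 the lowest, -0.83, with MRPL37 next at -0.81, and none of them passed. This order rests on single arrays. AIM36/MRPS8 gave 0.50 without Fhl1 untreated replicate 3, 0.76 without Fhl1 rapamycin replicate 4 and 1.76 without Fhl1 untreated replicate 1. Without Fhl1 rapamycin replicate 4 the difference was -1.26 at MCK1/MRPS18 and -0.51 at MRPL37.

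Ifh1 was then set against Fhl1 under the same treatment. In untreated cells 0 of 52 members were called, against 0.0% of all probes, and with rapamycin 0 of 52, against 0.0735%. The median difference, Ifh1 minus Fhl1, was -0.14 for mitochondrial and -0.27 for cytosolic RP probes in untreated cells. With rapamycin it was -0.03 for mitochondrial and -1.01 for cytosolic RP probes, and 61 of 128 cytosolic RP probes lay below the lowest member, MRPL28, at -1.03. That value was -0.61 without Fhl1 rapamycin replicate 4 and ranged from -1.03 to 0.72 over the sign settings. At an unadjusted p under 0.05, 0 members were higher and 6 lower for Ifh1 in untreated cells, against 2.01% and 2.12% of all probes, and 0 and 0 with rapamycin, against 2.31% and 3.2%. The 6 were MRPL25, MCK1/MRPS18, MRPL37, MRPL9, MRPS9 and ENA1/RSM10. Their differences ran from -1.60 at MRPL25 to -0.96 at ENA1/RSM10, with adjusted p = 0.997 for each in limma. This comparison uses the same Ifh1 untreated arrays on which MRPL25, MRPL9, MRPS9 and ENA1/RSM10 were described as low above. The count is therefore not a separate observation. Without Fhl1 untreated replicate 2 the difference at MRPL25 was -0.85, so its place as the lowest rests on that array. At MRPL9 it was -1.40, and -0.81 without Ifh1 untreated replicate 4. On the high side stood MRPS12, the small-subunit protein of the decoding centre, at 0.86, or 0.52 without Ifh1 untreated replicate 4. MRPL10 followed at 0.78, or 0.42 without Fhl1 untreated replicate 3.

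The test of whether rapamycin acted differently on the 2 proteins gave 0 calls among the members, against 0.0% of all probes. The median of this difference of differences was 0.11 for mitochondrial and -0.79 for cytosolic RP probes. At an unadjusted p under 0.05, 2 members were higher and 0 lower, against 2.09% and 2.28% of all probes. The arrays are those of the comparisons above, so this count is not a separate observation either. MRPL25 gave 2.23 (limma, SE 0.71, adjusted p = 0.984), and MRPL37 gave 1.78 (SE 0.56, adjusted p = 0.984). Over the sign settings MRPL25 ranged from 0.60 to 2.23 and MRPL37 from 0.83 to 1.81. For MRPL25 the Fhl1 arrays were 0.82, -0.43, 0.11, 0.60 and -0.16 with rapamycin, against -0.61, 2.26 and 0.64 untreated. Without Fhl1 untreated replicate 2, which gave the 2.26, its value was 1.48.

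Other genes of mitochondrial gene expression were set beside the members. In the mean of 3 groups, limma called 0 of 16 other mitochondrial RP probes, 0 of 20 probes of mitochondrial translation factors and 1 of 35 respiratory chain probes. The share was 1.47% of all probes and 0.178% of other intergenic probes, so counts of 0 in lists this small are close to background. Their median estimates were -0.02 for the other RP probes, -0.13 for translation factors and -0.00 for the respiratory chain. The other RP probes ran from -0.50 at IMG1 to 0.28 at DBP1/MRP51, and the translation factors from -0.35 at IFM1, the mitochondrial initiation factor, to 0.22 at NAM2/SMC6, which includes the mitochondrial leucyl-tRNA synthetase gene. In the respiratory chain QCR6, a subunit of the cytochrome bc complex, was highest at 0.36 and COX12, a subunit of cytochrome oxidase, lowest at -0.80. The COX12 estimate (SE 0.33, adjusted p = 0.551 in limma) came mostly from Ifh1 untreated, at -1.71 ± 2.31 (SD). Its means were -0.14 for Fhl1 rapamycin and -0.55 for Fhl1 untreated. The called probe was COX5A, another subunit of cytochrome oxidase, at -0.59 (adjusted p = 0.0117), that is, below the array median, with -1.08 for Fhl1 untreated (adjusted p = 0.0400).

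A single probe of a mitochondrial RP gene did lie with the cytosolic RP promoters, and it also faces one of them. YML6/RPS17A, set apart from the lists above, lies between the gene of a mitochondrial large-subunit protein and that of a cytosolic small-subunit protein. It gave -1.51, -0.00 and 0.07 on Ifh1 rapamycin arrays and 1.35, 1.63, 1.97 and 0.92 on Ifh1 untreated arrays. It gave 1.58, 1.95, 1.76, 2.39 and 1.64 on Fhl1 rapamycin arrays and 2.45, 2.56 and 1.31 on Fhl1 untreated arrays. Its group means were -0.48 ± 0.89 for Ifh1 rapamycin, 1.46 ± 0.44 for Ifh1 untreated, 1.87 ± 0.33 for Fhl1 rapamycin and 2.11 ± 0.69 for Fhl1 untreated (SD). With the signs used, all 12 arrays outside Ifh1 rapamycin were above the highest Ifh1 rapamycin value. The Ifh1 rapamycin signs are unsettled, and this separation depends on them. With replicate 1 turned, its -1.51 would become positive and exceed the 1.35 and 0.92 of Ifh1 untreated and the 1.31 of Fhl1 untreated. The probe counted toward the sign setting as a cytosolic RP promoter, and which of the 2 genes its signal belongs to cannot be told apart here.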

How the data were processed

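The deposited table holds, per the labels, 1 value per probe and array for Fhl1 or Ifh1 chromatin against untagged W303 chromatin, amplified by ligation-mediated PCR and labelled with Cy3 or Cy5. The authors deposited log2 ratios; the base was read from the values, since 2 to the power of each gave a ratio with 3 decimals for 100% of them (tolerance 0.002 of the third decimal). Of background correction, normalisation, spot filters and the array's genome build, the sources used here say nothing. Replicates 1 and 4 of Ifh1 untreated lacked a value at 1 and 8 probes, which were left missing.

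Probes carry the name of a reading frame, and the region lies on its higher-coordinate side: among genes with a gap of at least 150 bp on one side only, 43 of 53 with the gap on that side had a probe, against 4 of 53 on the other. Genes facing a probe came from NCBI's R64 gene table, in which 5307 of 5574 frames matched; frames with a letter suffix and RNA genes other than tRNAs that the array does not name were stepped over. Coordinates and sequences were not used here. Arrays were centred on their median and turned by the 128 cytosolic RP probes. limma 3.58.1 in R 4.3.3 (lmFit, eBayes) fitted 4 group means to all arrays, with Benjamini-Hochberg adjustment over 6803 probes, after the code was tested on simulated data. Tables were made in Python 3.11.15 with pandas 2.3.3 and numpy 2.4.6. Members, lists and tests were chosen with earlier results of these data known.

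Named are members called in any result, the 8 highest and 5 lowest by the mean of 3 groups, the 3 highest and 3 lowest of each group, the 2 largest rises and falls of each difference, and members with an unadjusted p under 0.05 in the mean of 3 groups, 23 in all. Of the other mitochondrial lists the highest, the lowest and any called probe by that mean are named. Alternatives were the signs as deposited, no centring, centring on intergenic probes, scaling, limma's trend and robust settings, a replicate block, an array cluster block, fewer arrays in the fit, leaving out each array, and the 8 sign patterns of the Ifh1 rapamycin arrays. Same-numbered arrays of compared groups had deviations from their group means that correlated between -0.23 and 0.07, so the numbers were not taken to pair the arrays.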

Additional observations from a re-analysis of the deposited data

Results flagged for a closer look

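Among 50 sets of 4 or 5 arrays (named members and both RP levels, in the 2 groups of that size), 4 held an array far from the others of its group. Chance marks about 1 in 20 sets that were not picked by their values. The members were named for extreme means or differences in these same arrays, so that rate does not carry over to them. MRPL9 on Ifh1 untreated replicate 4 gave -2.83, against -0.61 to -0.28 on the other 3 arrays, a gap of 0.873 of the whole range. The other three fell on Fhl1 rapamycin replicate 4. There MRPS9 gave -0.97, against -0.23 to -0.09 on the other 4 arrays (gap 0.839 of the range), and its mean of -0.33 ± 0.36 (SD, n = 5) became -0.17 ± 0.07 (n = 4) without it. MRPS12 gave -1.47 (gap 0.815), and its mean of -0.24 ± 0.70 became 0.07 ± 0.16. MRPL37 gave -1.49 (gap 0.733), and its mean of -0.28 ± 0.69 became 0.02 ± 0.19. These 2 arrays also had the widest spread over other intergenic probes, with SDs of 0.866 for Ifh1 untreated replicate 4 and 0.849 for Fhl1 rapamycin replicate 4, against 0.496 to 0.841 on the remaining 13. The part of that spread in the 4 values was not tested.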

How the results depend on the processing

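The count of called mitochondrial RP probes stayed at 0 in all 10 results under every alternative run, and the lowest adjusted p of any member over the alternatives was 0.148, for Ifh1 untreated. The numbers were not taken to pair the arrays, and the labels do not say whether they do. With the replicate block the count was also 0 in each, while calls over all probes fell to 9 for Fhl1 untreated and 1 for Ifh1 untreated. Levels moved by more than 1 SD between arrays in these cases: with the signs as deposited the level was -0.037 for Ifh1 untreated and -0.052 for Fhl1 untreated; with probes facing 1 gene only it was 0.10 for Ifh1 rapamycin and -0.28 for Ifh1 untreated; scaled by the median absolute deviation it was -0.27 for Ifh1 untreated; and the lowest sign pattern of Ifh1 rapamycin gave -0.017. No level needed a version with probes facing a cytosolic RP gene, since none did. The count of members below the median on every Ifh1 untreated array, an alternative set chosen after seeing the data, was 4 with signs as deposited, 11 when centred on intergenic probes, and 13 to 18 when 1 array was left out (18 without replicate 1). The mean over 3 groups of the 23 named members changed side of 0 in 41 of 460 alternative values, 15 of them with the signs as deposited. The direction of the ratios and the number of arrays limit these values; the cause of each move was not tested.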
